A study of Mus musculus with 12 samples.

Results

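The 9 genes examined here belong to the Polycomb repressive complexes, and they are the rows with these gene names among the 14219 genes of the deposited expression table. They comprise 5 genes of Polycomb repressive complex 1 (PRC1), which are Bmi1, Ring1, Rnf2, Cbx7 and Phc1, and 4 genes of Polycomb repressive complex 2 (PRC2), which are Ezh1, Ezh2, Eed and Suz12. They were chosen by name with the CPM of these libraries already known in each group, so the comparisons of PRC1 with PRC2 and of Ezh1 with Ezh2 are descriptions without a test. All 9 passed the filter on low values, and none was dropped.

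PRC2 places methyl groups on histone H3 through its catalytic subunit, which is either Ezh1 or Ezh2, held together with Eed and Suz12. PRC1 carries chromobox proteins that bind that mark and a RING ligase, Ring1 or Rnf2, that attaches ubiquitin to histone H2A with the help of a partner such as Bmi1, and both complexes keep genes silent. In the B cell lineage Ezh2 is known from dividing germinal centre cells, while Ezh1 is the enzyme usually found in cells at rest, and Bmi1 is known in several tissues for holding down the cell cycle inhibitor locus Cdkn2a.

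The libraries are bulk RNA from plasma cells, the antibody-secreting cells of the B lineage, sorted from bone marrow of BLTcre.mcl1fl/+ mice on the C57BL/6 strain. Every group, controls included, comes from animals with the same Cre and 1 floxed Mcl1 allele. All animals had received tamoxifen, which turned on a human CD4 reporter. Whether marked cells had also lost the floxed allele was not tested, so marking and such a loss cannot be told apart. The 4 groups of 3 libraries were human CD4+ cells at day 270 after tamoxifen (day 270 marked), human CD4- cells at day 270 (day 270 unmarked), human CD4+ cells at day 60 (day 60 marked) and human CD4- cells at day 60 (day 60 unmarked). Which cells express the Cre, how old the animals were and whether animals were pooled is not stated in the labels. Specimen numbers tie each marked library to 1 unmarked library of its day, which gives 6 specimen pairs. Since nothing says that specimens are separate animals, p-values measure only the spread between these libraries.

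Levels are CPM, the reads of a gene scaled to the same total of table reads in every library, and library totals ran between 7449468 and 15943547 reads. Genes with at least 1 read numbered 11022 to 13506 per library, and day 270 marked libraries 2 and 3 had the fewest, 11022 and 11301. Markers of plasma cells were present in every library, since none of the 9 was at 0. Their summed level was lowest in day 270 marked library 2, at 90135 CPM, of which Jchain made up 79037 CPM. In every other library the sum was 168741 CPM or more. Differences are on the log2(CPM + 0.5) scale with the standard error of a limma fit over 12704 genes, positive where marked cells or, between days, day 270 cells were higher, and a gene was called where the Benjamini-Hochberg adjusted p over all those genes was under 0.05. Scaling by TMM instead of total reads moved the median of all genes in marked against unmarked cells by 0.12, and with total reads that median was -0.18. For day 270 against day 60 the same change of scaling moved the median by 0.11 in the other direction. In bulk RNA, fewer cells of a type and less RNA per cell cannot be told apart.

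Set per kilobase of exon, the 9 genes covered a wide range of levels. Bmi1 was the highest at 51.8 ± 17.3 CPM per kb (SD, n = 12 libraries), above 93.1% of the genes tested. Next in order of mean level came Cbx7 at 15.2 ± 2.48, Suz12 at 11.2 ± 2.58 and Eed at 9.05 ± 1.37 CPM per kb. Below them stood Rnf2 at 8.40 ± 2.32, Ring1 at 7.87 ± 1.48 and Ezh1 at 5.14 ± 1.37 CPM per kb. Phc1, at 1.68 ± 0.98, and Ezh2, at 1.53 ± 0.80 CPM per kb, were lowest. The mean ± SD of Bmi1 stood clear of that of Cbx7, and that of Ezh1 stood clear of that of Phc1, while every other pair of neighbours in this order overlapped. With the longest transcript as the length instead, Bmi1 stayed first at 57.3 CPM per kb, Eed took the second place at 16.8 CPM per kb, and Phc1 came last at 2.11 CPM per kb, below Ezh2 at 3.68 CPM per kb.

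**Figure D1:**
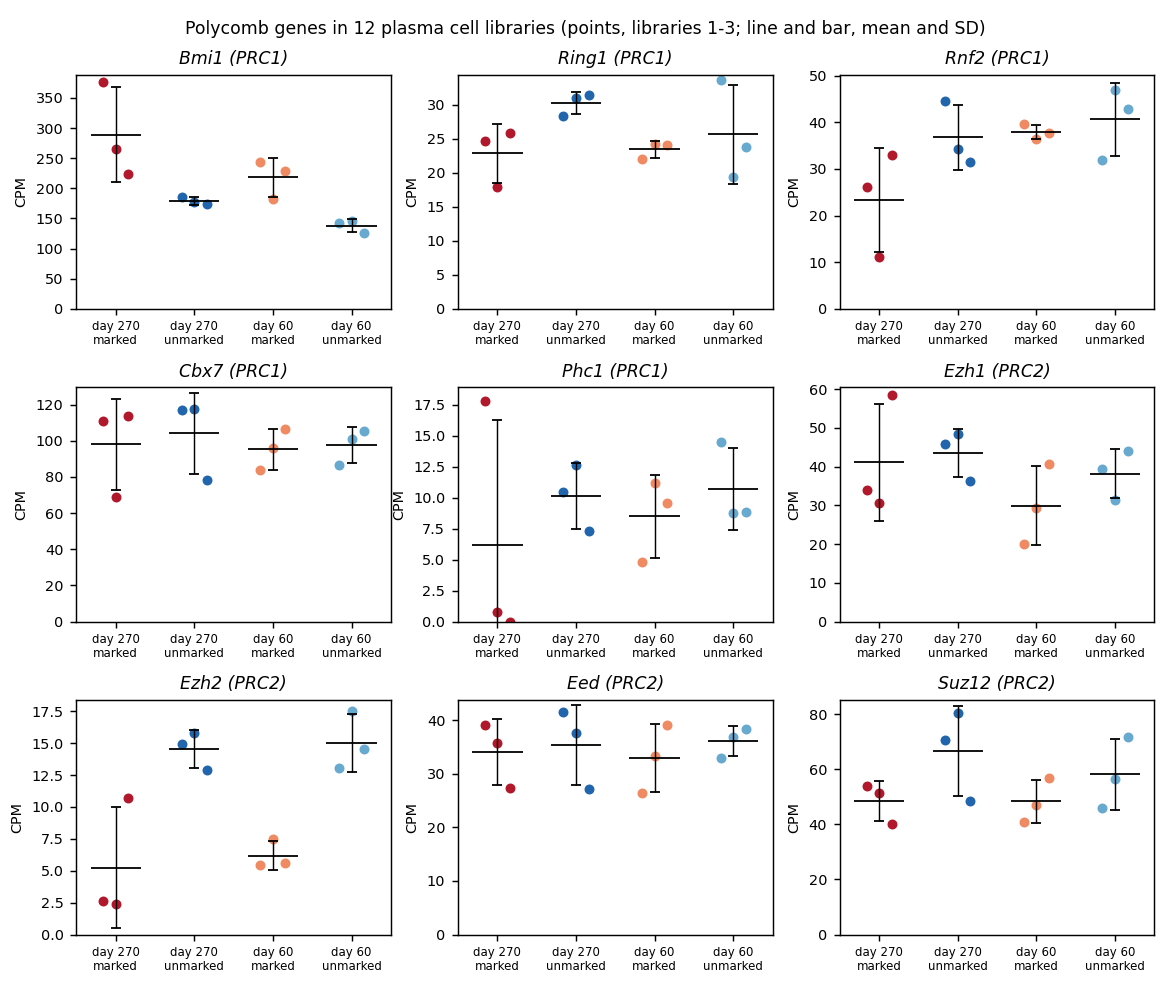
CPM of the 9 Polycomb genes in each of the 12 libraries, by group on the horizontal axis; points are libraries 1 to 3, the line is the mean and the bar the SD, and each panel has its own vertical axis. Bmi1 is higher in marked than in unmarked cells at both days, with 289 against 179 CPM at day 270 and 218 against 138 CPM at day 60, and Ezh2 is lower, with 5.25 against 14.5 CPM and 6.18 against 15.0 CPM.

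Between marked and unmarked cells with both days averaged, 2 of the 9 genes were called: Bmi1, the ring-finger partner of the PRC1 ligases, was higher in marked cells, and Ezh2, a catalytic subunit of PRC2, was lower. Across all genes 1.84% were called in this comparison, 0.338% higher and 1.5% lower. The other 7 genes had log2 differences between -1.27 and -0.068, and none was called. How the marking effect differed between days was tested as an interaction, in which 0 of the 9 genes passed. Since the genes were chosen with this comparison known, the count of 2 supports nothing beyond the description.

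Bmi1 (ENSMUSG00000026739, chr2:18677018-18686629 on the plus strand, GRCm38) had 376, 266 and 224 CPM in day 270 marked cells, against 186, 178 and 174 CPM in day 270 unmarked cells. Its day 60 levels were 244, 182 and 229 CPM in marked cells, against 143, 145 and 125 CPM in unmarked cells. Every marked library stood above every unmarked library of its own day, and the highest of all was day 270 marked library 1. Over all 12 libraries the groups overlapped, because day 60 marked library 2 lay below day 270 unmarked library 1. Marked libraries above unmarked ones without overlap were found for 3.28% of the genes tested at day 270, 4.46% at day 60 and 0.669% at both days. These levels rest on 1528 to 5999 reads per library, and counting error is small beside the spread of the marked groups (SD 78.6 and 32.4 CPM). It is not small beside the SD of 6.11 CPM in day 270 unmarked cells. There library 1 had an exact Poisson 95% interval of 178 to 194 CPM.

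The averaged log2 difference of Bmi1 was 0.65 ± 0.13 (adjusted p = 0.0132), a 1.57-fold higher level in marked cells, and Bmi1 ranked 96 by p among the 12704 genes. It was positive in 6 of 6 specimen pairs, with differences between 0.32 and 1.02, and the share of all genes with this pattern was not counted. The call was kept in each of the 12 fits that left out 1 library, with adjusted p-values up to 0.0480, and in the 7 other settings tried. Without day 270 marked libraries 2 and 3, the difference was 0.86 with an adjusted p of 0.00136. Replicate 1 libraries carry neighbouring library numbers apart from the rest, and the 2 pairs of that set averaged 0.89 while the other 4 pairs averaged 0.53. In those 4 pairs the marked libraries carry higher numbers than the unmarked ones throughout, so marking and library number cannot be told apart.

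Ezh2 (ENSMUSG00000029687, chr6:47530139-47595341 on the minus strand, GRCm38) had 2.63, 2.42 and 10.7 CPM in day 270 marked cells, against 14.9, 15.8 and 12.9 CPM in day 270 unmarked cells. At day 60 the levels were 5.42, 7.50 and 5.63 CPM in marked cells, against 13.1, 17.5 and 14.5 CPM in unmarked cells. All 6 marked libraries lay below all 6 unmarked libraries, a separation found with marked cells lower for 1.85% of genes, and for 2.96% where each day is taken by itself. For single days the share with marked cells lower was 12% at day 270 and 11.3% at day 60. Day 270 marked library 3 was the highest marked library and came nearest to the unmarked ones. The reads behind these levels were few, 18 to 211 per library. In day 270 marked library 2, 18 reads gave an exact Poisson 95% interval of 1.43 to 3.82 CPM, which covers counting error only.

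The averaged log2 difference of Ezh2 was -1.45 ± 0.35 (adjusted p = 0.0383), a level in marked cells 0.366 times that in unmarked cells. It was negative in 6 of 6 pairs, with differences between -2.48 and -0.26, and averaged -1.75 in the 2 pairs of replicate 1 and -1.30 in the other 4. The share of all genes negative in 6 of 6 pairs was not counted. With the specimen as a block the adjusted p was 0.0685, with a pseudocount of 0.1 it was 0.0547 and with edgeR on recovered reads it was 0.0682, so the call was lost there. It was also lost on leaving out any 1 of the 3 day 270 unmarked, 3 day 60 marked or 3 day 60 unmarked libraries (adjusted p between 0.0697 and 0.117), and it was kept on leaving out any 1 day 270 marked library. Without day 270 marked libraries 2 and 3, the difference was -1.74 with an adjusted p of 0.00285.

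The RefSeq promoters of the 2 called genes and of Ezh1, the alternative catalytic subunit, are shown because they are the sequences whose transcripts are compared here, each running 250 bases before to 50 bases after the start site (GRCm38.p6, 5′ to 3′ along the gene). All 9 genes matched an entry of the table. Capitals mark matches to letters searched for on both strands: an E2F-type site, spelled TTTCCCGC, TTTCGCGC, TTTGCCGC or TTTGGCGC, and the E-box CACGTG; the spellings do not overlap in these promoters. Bmi1 lies at chr2:18676768-18677067 on the plus strand, Ezh2 at chr6:47594981-47595280 on the minus strand and Ezh1 at chr11:101226414-101226713 on the minus strand.
Bmi1: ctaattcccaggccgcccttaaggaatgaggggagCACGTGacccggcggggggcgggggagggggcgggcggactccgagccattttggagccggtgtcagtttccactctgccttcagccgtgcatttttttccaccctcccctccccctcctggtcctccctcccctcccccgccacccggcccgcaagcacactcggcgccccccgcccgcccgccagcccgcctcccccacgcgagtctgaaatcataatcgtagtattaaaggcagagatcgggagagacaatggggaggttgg
Ezh2: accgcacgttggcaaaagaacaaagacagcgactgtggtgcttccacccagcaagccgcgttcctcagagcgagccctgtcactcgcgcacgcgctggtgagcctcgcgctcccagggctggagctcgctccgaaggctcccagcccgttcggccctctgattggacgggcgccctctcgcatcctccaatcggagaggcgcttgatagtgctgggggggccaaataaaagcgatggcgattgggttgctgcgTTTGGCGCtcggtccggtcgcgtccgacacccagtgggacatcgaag
Ezh1: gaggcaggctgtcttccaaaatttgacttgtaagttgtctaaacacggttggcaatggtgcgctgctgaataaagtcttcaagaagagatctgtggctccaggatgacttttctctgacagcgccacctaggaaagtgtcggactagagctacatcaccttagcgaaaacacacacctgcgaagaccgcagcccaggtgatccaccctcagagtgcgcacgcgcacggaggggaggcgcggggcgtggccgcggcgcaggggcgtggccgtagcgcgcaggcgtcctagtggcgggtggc
Ezh2 holds TTTGGCGC from base 4 after its start, Bmi1 holds CACGTG from base -215, and Ezh1 holds neither within this window. Among the other 6 genes, Suz12 holds TTTCCCGC from base -219, and the rest hold none of these letters. For comparison, 2.26% of 32851 mouse promoters of the same length hold an E2F-type spelling and 7.15% hold the E-box.

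**Figure D2:**
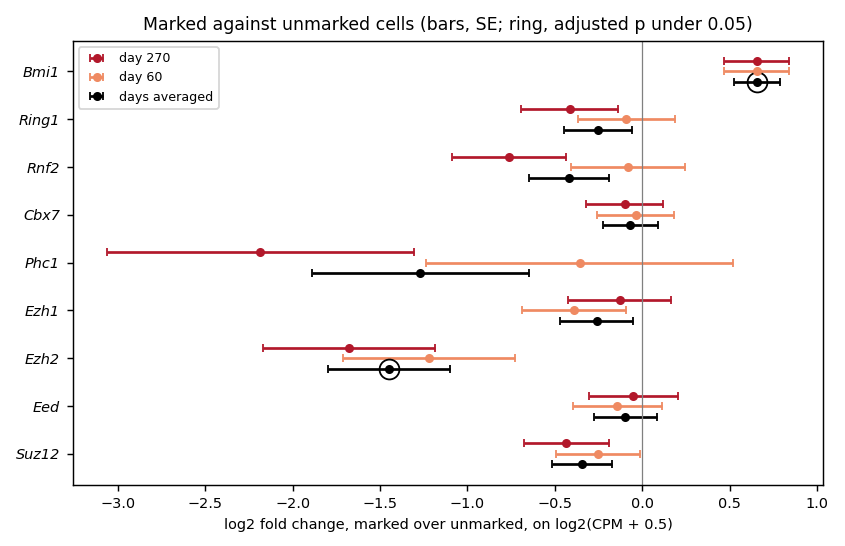
Log2 difference of marked over unmarked cells for the 9 genes at day 270, at day 60 and with days averaged, on the log2(CPM + 0.5) scale; points are limma estimates, bars are standard errors and rings mark an adjusted p under 0.05. Bmi1 is the gene to the right of 0 at both days, with 0.65 at each. With days averaged, Ezh2 at -1.45 and Phc1 at -1.27 lie farthest to the left, and the size for Phc1 depended on the pseudocount.

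The ligases of PRC1 showed no called difference. Ring1 (ENSMUSG00000024325, chr17:34020792-34024680, minus strand), a RING ligase for histone H2A, had 24.7, 17.9 and 25.9 CPM in day 270 marked cells, against 28.4, 31.0 and 31.4 CPM in day 270 unmarked cells. Its marked libraries at day 270 all lay below the unmarked ones, as was also the case for 12% of all genes, whereas at day 60 the values overlapped, with 22.0 to 24.2 CPM in marked cells and 19.4 to 33.6 CPM in unmarked cells. Rnf2 (ENSMUSG00000026484, chr1:151458004-151500955, minus strand), the paralogous ligase, had 26.0, 11.1 and 32.9 CPM in day 270 marked cells, against 44.6, 34.3 and 31.4 CPM in day 270 unmarked cells. The lowest Rnf2 value was that of day 270 marked library 2, and the groups overlapped. At day 60 Rnf2 ranged from 36.5 to 39.6 CPM in marked cells, inside the 31.9 to 47.0 CPM of unmarked cells. The averaged differences were -0.25 ± 0.20 for Ring1 (adjusted p = 0.543) and -0.42 ± 0.23 for Rnf2 (adjusted p = 0.369).

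Cbx7 (ENSMUSG00000053411, chr15:79915807-79971119, minus strand), a chromobox protein that reads the methyl mark, was at a like level in all groups. It had 111, 69.1 and 114 CPM in day 270 marked cells, against 117, 117 and 78.4 CPM in day 270 unmarked cells. In the day 60 libraries Cbx7 ranged from 83.7 to 106 CPM in marked cells and from 86.5 to 105 CPM in unmarked cells. The low values, 1 at day 270 in each population, came from different specimens, and the averaged difference was -0.068 ± 0.16 (adjusted p = 0.864). Under TMM scaling this small difference turned positive.

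Phc1 (ENSMUSG00000040669, chr6:122317731-122340561, minus strand), a polyhomeotic protein that links PRC1 units together, varied most within a group. It had 17.8, 0.81 and 0 CPM in day 270 marked cells, against 10.5, 12.6 and 7.30 CPM in day 270 unmarked cells. Day 270 marked library 1 was thus the highest of all 12 libraries and libraries 2 and 3 of the same group were the lowest, and those 2 are the libraries with the fewest genes detected. The 0 reads in library 3 allow a level of up to 0.325 CPM (3 reads), and library 2 held 6 reads. The day 60 values were 4.77, 11.2 and 9.56 CPM in marked cells, against 14.5, 8.76 and 8.88 CPM in unmarked cells, and the groups overlapped. The averaged difference was -1.27 ± 0.62 (adjusted p = 0.309). Its size depended on how values near 0 were handled. It was -1.73 with a pseudocount of 0.1, -1.04 with 1, -0.40 with edgeR and -0.41 with DESeq2. At day 270 alone the same settings gave -3.09, -1.75, -0.57 and -0.60, against -2.19 in the main fit. Day 270 marked library 1 decided the call: without it Phc1 was called at -2.02 (adjusted p = 0.00911), and without libraries 2 and 3 the difference was 0.23.

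The PRC2 scaffold genes differed little. Suz12 (ENSMUSG00000017548, chr11:79993106-80034123, plus strand), which holds the complex together, had 53.8, 51.5 and 40.1 CPM in day 270 marked cells, against 70.5, 80.6 and 48.6 CPM in day 270 unmarked cells. Suz12 at day 60 had 41.0, 47.2 and 56.8 CPM in marked cells, against 46.1, 56.6 and 71.8 CPM in unmarked cells. Groups overlapped at both days, and the averaged difference was -0.34 ± 0.17 (adjusted p = 0.320). The marked library was the lower one in 6 of 6 specimen pairs, by -0.64 to -0.17. The median of all genes was itself -0.18, and the share of them lower in 6 of 6 pairs was not counted. Eed (ENSMUSG00000030619, chr7:89954654-89980983, minus strand), the subunit that binds the methyl mark and stimulates the enzyme, ranged from 27.3 to 39.1 CPM in day 270 marked cells and from 27.1 to 41.6 CPM in day 270 unmarked cells. Its day 60 values were 26.5 to 39.1 CPM in marked cells and 32.9 to 38.4 CPM in unmarked cells. The averaged difference of Eed was -0.096 ± 0.18 (adjusted p = 0.828), and it turned positive under TMM scaling.

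Ezh1 (ENSMUSG00000006920, chr11:101191115-101226463, minus strand) did not show the separation seen for Ezh2. It had 34.1, 30.7 and 58.5 CPM in day 270 marked cells, against 45.8, 48.4 and 36.4 CPM in day 270 unmarked cells. At day 60 it had 19.98, 29.4 and 40.6 CPM in marked cells, against 39.4, 31.3 and 44.0 CPM in unmarked cells. Marked libraries held both the highest and the lowest Ezh1 level of the 12, and the groups overlapped at both days. The averaged difference was -0.26 ± 0.21 (adjusted p = 0.563).

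Within a library, Ezh2 made up a smaller share of the methyltransferase RNA in marked cells. As a percentage of Ezh1 plus Ezh2 per kb of exon, Ezh2 was 7.93, 8.05 and 16.9% in day 270 marked cells, against 26.6, 26.6 and 28.3% in day 270 unmarked cells. At day 60 it was 23.2, 22.1 and 13.4% in marked cells, against 27.0, 38.4 and 26.9% in unmarked cells. Every marked library had a lower share than every unmarked library, and Ezh1 was the more abundant of the pair in all 12. With the longest transcript as the length, the mean share was 14.2% in day 270 marked, 33.6% in day 270 unmarked, 24.7% in day 60 marked and 37.5% in day 60 unmarked cells, and it keeps the order of the groups.

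The balance of PRC1 to PRC2 RNA was higher in marked cells, where the mean PRC1 sum was higher and the mean PRC2 sum lower. Per kb, the PRC1 sum averaged 102 CPM in marked against 81.2 CPM in unmarked cells at day 270. The day 270 groups overlapped, with marked library 2 at 85.9 CPM and unmarked library 1 at 86.3 CPM, while marked library 1 reached 129 CPM. At day 60 the PRC1 sum averaged 87.6 against 69.5 CPM. For PRC2 the means were 25.0 against 30.7 CPM at day 270 and 23.3 against 28.6 CPM at day 60, with overlap at both days. The summed level per kb of the 5 PRC1 genes over that of the 4 PRC2 genes was 4.95, 3.54 and 3.64 in day 270 marked cells, against 2.57, 2.37 and 3.13 in day 270 unmarked cells. At day 60 the ratio was 4.90, 3.38 and 3.30 in marked cells, against 2.79, 2.55 and 2.06 in unmarked cells. All marked libraries had a higher ratio than all unmarked ones. Bmi1 alone supplied 71.3 ± 7.76% of the PRC1 sum in day 270 marked cells, 55.6 ± 2.71% in day 270 unmarked cells, 62.5 ± 4.54% in day 60 marked cells and 49.8 ± 2.56% in day 60 unmarked cells (SD, n = 3 each). Leaving Bmi1 out of the sum, the ratio was 1.15 ± 0.32 in day 270 marked, 1.19 ± 0.10 in day 270 unmarked, 1.43 ± 0.19 in day 60 marked and 1.23 ± 0.13 in day 60 unmarked cells, and the groups overlapped.

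**Figure D3:**
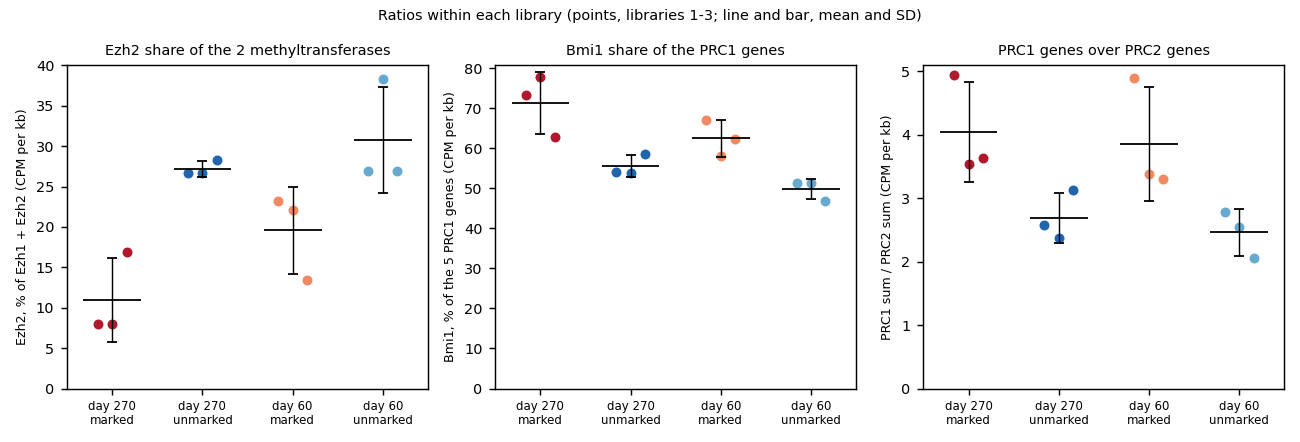
Ratios within each library from CPM per kb of exon: Ezh2 as a percentage of Ezh1 plus Ezh2 (left), Bmi1 as a percentage of the 5 PRC1 genes (middle) and the PRC1 sum over the PRC2 sum (right); points are libraries 1 to 3, the line is the mean and the bar the SD. Day 270 marked cells have the lowest mean Ezh2 share, with libraries at 7.93 to 16.9% against 26.6 to 28.3% in day 270 unmarked cells, and the highest mean PRC1 to PRC2 ratio, 4.04 against 2.69.

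Taken day by day, none of the 9 genes was called by limma. At day 270 Bmi1 differed by 0.65 ± 0.19 (adjusted p = 0.135) and Ezh2 by -1.68 ± 0.49 (adjusted p = 0.153), so that 0 of the 9 genes were called where 0.48% of all genes were. At an unadjusted p under 0.05, which 14% of all genes reached, there were 4 of the 9, with Phc1 at -2.19 ± 0.88 (adjusted p = 0.281) and Rnf2 at -0.76 ± 0.33 (adjusted p = 0.308) beside them, edgeR called 0 and DESeq2 called 1, Bmi1. Leaving out single libraries changed this: without day 270 marked library 3 Ezh2 was called at -2.31 (adjusted p = 0.0179), without day 270 marked library 1 Phc1 was called at -3.69 (adjusted p = 0.00402), and without libraries 2 and 3 Bmi1 was called at 1.07 (adjusted p = 0.0416).

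At day 60 Bmi1 differed by 0.65 ± 0.19 (adjusted p = 0.276) and Ezh2 by -1.22 ± 0.49 (adjusted p = 0.659). Again 0 of the 9 genes were called, against 0.189% of all genes, while 2 had an unadjusted p under 0.05, as did 6.45% of all genes, edgeR called 0 and DESeq2 called 1, Bmi1. The authors' deposited table gives log2 differences at day 60 of 0.80 for Bmi1 (FDR 0.136) and -1.20 for Ezh2 (FDR 0.456). For day 270 marked against day 60 unmarked cells, the authors' deposited table of selected genes lists Bmi1 at 1.06 (FDR 0.00641).

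Day 270 against day 60, with both populations averaged, gave no called member, against 0.189% of all genes. Bmi1 had the smallest p of the 9, with a difference of 0.38 ± 0.13 (adjusted p = 0.366), and 1 of the 9 had an unadjusted p under 0.05, as did 8.53% of all genes, while edgeR and DESeq2 called 0. Monocyte and macrophage markers, 8 of 10 at an unadjusted p under 0.05, with 0 called by limma or edgeR and 2 by DESeq2, also had positive differences between days in all 10, and their part in the values of Bmi1 was not tested. In unmarked cells the 3 day 270 libraries of Bmi1 lay above the 3 of day 60, which was so for 10.4% of genes, and in marked cells the days overlapped. In marked cells the 3 day 270 libraries of Rnf2 lay below the 3 of day 60, which was so for 4.04% of genes. Ezh2 differed between days by -0.27 ± 0.35 (adjusted p = 0.883) and overlapped in both populations.

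The marking effect was not shown to differ between days for any of the 9. The interaction was 0.0010 ± 0.26 for Bmi1 and -0.46 ± 0.70 for Ezh2 (adjusted p = 0.9999 for each). With limma 0% of all genes passed, and 387 genes (3.05%), none of them among the 9, had an unadjusted p under 0.05. edgeR passed 0 genes and DESeq2 passed 5, again none among the 9.

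Across the 12 libraries, log2(CPM + 0.5) of Bmi1 and Ezh2 ran in opposite directions (Pearson's r = -0.86, Spearman's rho = -0.80), as a description over libraries that share the split by marking. Among the other pairs of members, Eed and Suz12 were most alike (r = 0.78, rho = 0.81), and Ezh1 and Ezh2 had r = 0.46 and rho = 0.50. Of 8601 genes with a mean of at least 5 CPM, those closest to Bmi1 were Golga7 (r = 0.93, rho = 0.92), Cd164 (r = 0.89, rho = 0.89) and Dsel (r = 0.89, rho = 0.92). Those closest to Ezh2 were Ralgds (r = 0.94, rho = 0.85), Apaf1 (r = 0.94, rho = 0.96) and Blmh (r = 0.94, rho = 0.95), and those closest to Ezh1 were Dicer1 (r = 0.98, rho = 0.97), Arfgef1 (r = 0.96, rho = 0.97) and Smcr8 (r = 0.96, rho = 0.95). Nearest to Suz12 were Furin, Ash1l and Rapgef6 (r between 0.92 and 0.93, rho between 0.84 and 0.95). Nearest to Eed were Aebp2, Pygo2 and Sbf2 (r between 0.86 and 0.88, rho between 0.78 and 0.85). For Ring1 they were E2f3, Brd9 and Gde1 (r between 0.88 and 0.90, rho 0.85 to 0.92). For Cbx7 they were Usp6nl, Arsa and Arhgap24 (r 0.94 to 0.95, rho 0.87 to 0.92). Ranks were less alike for the neighbours of Rnf2, which were Arl4a, Gramd4 and Acat2 (r 0.94 to 0.96, rho 0.76 to 0.79). The same held for those of Phc1, which were Zfp61, Zfand2b and Dlgap4 (r 0.94 to 0.96, rho 0.60 to 0.79). Phc1 has 2 libraries near 0, at 0.81 and 0 CPM. These libraries share depth, detection and marking, all of which can give likeness.

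Other subunits of the complexes gave 1 further call. Of 27 genes of core and variant PRC1, 26 were tested with days averaged, and Bmi1 was called higher and Phc3 lower. A negative difference was found in 22, a pattern whose share over all genes was not counted. The median was -0.30 where that of all genes was -0.18. Phc3, a polyhomeotic protein related to Phc1, had 17.0, 11.3 and 9.96 CPM in day 270 marked cells, against 41.1, 53.0 and 32.1 CPM in day 270 unmarked cells. The day 270 groups did not overlap, which was so with marked cells lower for 12% of genes, while at day 60 they did, with 21.3, 30.2 and 32.3 CPM in marked cells against 34.1, 26.9 and 49.5 CPM in unmarked cells. The difference was -1.69 ± 0.31 at day 270 (adjusted p = 0.0200), -0.37 ± 0.31 at day 60 (adjusted p = 0.934) and -1.03 ± 0.22 averaged (adjusted p = 0.0203), and its interaction with day did not pass. The averaged call of Phc3 was lost without day 270 marked libraries 2 and 3 (-0.81, adjusted p = 0.0912), and without day 270 unmarked library 1 or 2, day 60 unmarked library 1 or 3 or day 60 marked library 1 (adjusted p between 0.0553 and 0.0833). Its day 270 call was lost without day 270 unmarked library 1, 2 or 3 (adjusted p between 0.0756 and 0.157), without day 270 marked libraries 2 and 3 (0.315), and in a fit of the day 270 libraries alone (0.252). At the ends of the list, the chromobox genes Cbx8 and Cbx6 had -0.50 ± 0.31 (adjusted p = 0.447) and 0.34 ± 0.20 (adjusted p = 0.401), and E2f6 had 0.18 ± 0.30 (adjusted p = 0.811).

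In the PRC2 list of core and accessory subunits, 12 of 13 genes were tested and Ezh2 alone was called. All 12 had a negative difference, with a median of -0.26 where that of all genes was -0.18. The share of all genes with a negative difference was not counted. Mtf2, which recruits PRC2 to unmethylated CpG-rich DNA, had -0.38 ± 0.28 (adjusted p = 0.521), and Jarid2, a cofactor of PRC2, had -0.26 ± 0.30 (adjusted p = 0.697). The histone chaperone Rbbp4, also part of other complexes, had -0.0037 ± 0.13 (adjusted p = 0.990), and Phf1 had -0.071 ± 0.15 (adjusted p = 0.850). Under TMM scaling, edgeR and DESeq2, the differences of Rbbp4, Phf1 and Eed turned positive.

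Genes that act against Polycomb marks were not called. Of 13 erasers and partners of erasers, 12 were tested, with a median of -0.36 where that of all genes was -0.18. Among these, 2 had an unadjusted p under 0.05, which 16.9% of all genes reached in this comparison, and edgeR and DESeq2 called 0. Asxl1, partner of the H2A deubiquitinase Bap1, was lowest at -0.69 ± 0.21 (adjusted p = 0.116). Hcfc1 had -0.50 ± 0.27 (adjusted p = 0.353), Foxk2 had 0.15 ± 0.25 (adjusted p = 0.795) and the demethylase Kdm6b had 0.17 ± 0.23 (adjusted p = 0.738). All 13 genes of the Trithorax group, which oppose Polycomb silencing, were tested and 0 were called, with 2 at an unadjusted p under 0.05 (16.9% of all genes), 0 by edgeR or DESeq2 and a median of -0.21. Within it the methyltransferases Kmt2b and Kmt2a had -0.64 ± 0.27 (adjusted p = 0.239) and -0.48 ± 0.28 (adjusted p = 0.409), and the core subunits Wdr5 and Ash2l had -0.0095 ± 0.18 (adjusted p = 0.983) and 0.034 ± 0.21 (adjusted p = 0.948).

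CDK inhibitors and textbook Polycomb targets gave 0 calls among 8 tested of 10, with 1 at an unadjusted p under 0.05 (16.9% of all genes) and 0 by edgeR or DESeq2. Cdkn2a, the inhibitor locus best known as a Bmi1 target, had 0.82, 2.69 and 4.98 CPM in day 270 marked cells, against 11.5, 8.28 and 9.83 CPM in day 270 unmarked cells. At day 60 it had 5.34, 2.26 and 3.22 CPM in marked cells, against 9.04, 8.93 and 4.68 CPM in unmarked cells. The day 270 groups did not overlap, as for the 12% of genes with marked cells lower in this way at that day, and the day 60 groups did overlap. The averaged difference of -1.42 ± 0.41 was not called (adjusted p = 0.0889). It was called without day 270 marked library 3 (-1.66, adjusted p = 0.0225) and without libraries 2 and 3 (-1.98, adjusted p = 0.0102). Cdkn2b had -0.84 ± 0.55 (adjusted p = 0.457), Cdkn1a had 0.097 ± 0.27 (adjusted p = 0.891) and Cdkn2d had 0.53 ± 0.32 (adjusted p = 0.430).

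Cell cycle RNA, like Ezh2, was lower in marked than in unmarked cells. Of 38 cell cycle genes, 16 were called lower in marked cells with days averaged, where 1.5% of all genes were. In 37 the difference was negative, and the median was -1.31 where that of all genes was -0.18. The count of called genes was 8 with edgeR, 17 with DESeq2, 11 to 19 on leaving out 1 library and 13 without day 270 marked libraries 2 and 3. Summed over the list, the level was 378 to 475 CPM in day 270 marked, 709 to 788 CPM in day 270 unmarked, 309 to 418 CPM in day 60 marked and 704 to 740 CPM in day 60 unmarked cells, so the marked and unmarked libraries did not overlap. Up to 13 of the 38 genes were at 0 in a marked library, and at most 1 in an unmarked library. Top2a, the topoisomerase of dividing cells, differed by -2.99 ± 0.38 (adjusted p = 0.000455), the mitotic genes Ccna2 and Cdk1 by -3.33 ± 0.57 (adjusted p = 0.00416) and -3.16 ± 0.51 (adjusted p = 0.00272), and Rrm2, a subunit of ribonucleotide reductase, by -1.45 ± 0.20 (adjusted p = 0.000708). Also called lower were Cdc20, Tpx2, Cdc45, Birc5, Aurkb, Nusap1 and E2f2, with differences between -3.17 and -1.12, and these kept their call in each of the 12 fits without 1 library. Plk1 kept its call in 9 of those 12 fits, Ccnb2 in 5, and Aurka, Kif11 and Ube2c in 4 each, with adjusted p-values up to 0.147 among these 5 genes. Mki67, a proliferation marker, had -0.93 ± 0.32 (adjusted p = 0.164), and at the other end Tk1 had -0.18 ± 0.22 (adjusted p = 0.714) and E2f1 had 0.030 ± 0.27 (adjusted p = 0.965). The part of cell cycle RNA in the difference of Ezh2 was not tested.

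**Figure D4:**
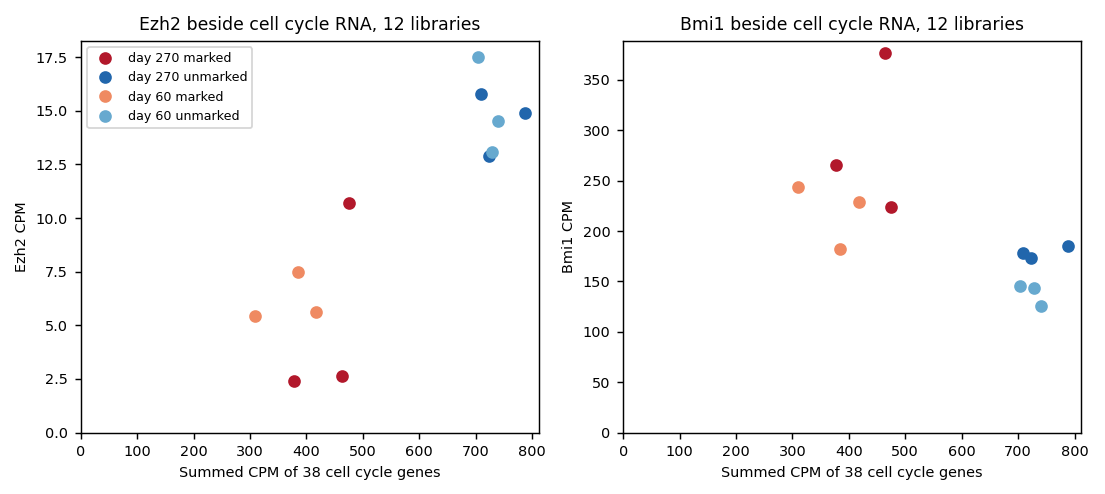
CPM of Ezh2 (left) and Bmi1 (right) against the summed CPM of 38 cell cycle genes, 1 point per library, coloured by group. Marked libraries lie at 309 to 475 CPM of cell cycle RNA with the lower Ezh2 values, and unmarked libraries at 704 to 788 CPM with the higher Ezh2 values.

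RNA of other cell types also differed between the groups. All 10 B cell markers were tested, and the sum of the 10 was 1127 to 1427 CPM in day 270 marked, 1964 to 2068 CPM in day 270 unmarked, 1301 to 1403 CPM in day 60 marked and 1741 to 2058 CPM in day 60 unmarked cells. The B cell receptor subunit Cd79a, named after its value was seen, was lower in marked cells at -1.23 ± 0.13 (adjusted p = 6.1e-05). The B cell transcription factor Pax5 was at 0 in day 270 marked libraries 2 and 3, and Ciita was at 0 in 8 of the 12. Of 9 erythroid markers 7 were tested and 4, the globin genes Hba-a1, Hba-a2, Hbb-bs and Hbb-bt, were called higher in marked cells by 2.14 to 2.61, with sums over the list of 180 to 788 CPM in day 270 marked, 28.5 to 166 CPM in day 270 unmarked, 107 to 346 CPM in day 60 marked and 37.3 to 62.9 CPM in day 60 unmarked cells. Without day 270 marked libraries 2 and 3, 0 of these 4 were called. No monocyte and macrophage marker was called or at 0, and their sum was 1913 to 4830 CPM in day 270 marked, 1588 to 2702 CPM in day 270 unmarked, 1222 to 1787 CPM in day 60 marked and 803 to 1951 CPM in day 60 unmarked cells. Neutrophil markers, 10 of 10 in the table with 0 called, summed to 1.70 to 819 CPM, and the 5 of 10 T and NK cell markers in the table, 0 called, to at most 33.3 CPM in any library. The part of erythroid, B cell, monocyte, neutrophil and T cell RNA in the differences of Bmi1 and Ezh2 was not tested. Among plasma cell genes, 0 of 9 were called, and Prdm1, Irf4, Xbp1 and Jchain differed by -0.36 ± 0.16 (adjusted p = 0.267), -0.34 ± 0.13 (0.204), -0.13 ± 0.13 (0.651) and -0.21 ± 0.38 (0.827).

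Several members share exon bases with a gene on the opposite strand in GENCODE M21, and whether the authors' counting used strand is not stated. For Eed the overlap with E230029C05Rik covers 6.82% of its exon bases, for Rnf2 that with Trmt1l covers 3.83%, for Suz12 that with Gm26563 covers 3.60%, for Ezh2 that with Gm26625 covers 2.61% and for Cbx7 that with Apobec3 covers 1.54%. Without strand, reads there could come from either gene. Bmi1, Ring1, Phc1 and Ezh1 have no such overlap.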

How the data were processed

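Whole-transcriptome RNA was measured in 12 libraries, 3 in each of 4 groups, assigned by the sample titles. Per the labels' protocols, RNA came from RNeasy Micro kits and libraries were prepared with the TruSeq RNA kit. The submitters' processing notes name GRCm38 and limma, and no aligner or counter. The authors deposited whole-number counts for 230 genes and, per the file headers, CPM of 14219 genes with their own log2 fold changes and p-values; CPM is scaled to each library's total, so a few abundant RNAs can shift all others.

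Reads were recovered from the CPM: 151342 of 151342 values under 1000 reads (100%) came out whole to within 0.05, and the 230 genes of the count table matched in 100% of cells. The design named edgeR for counts, but the full table is CPM, so limma 3.58.1 (R 4.3.3, trended prior, 8 residual degrees of freedom) was fitted on log2(CPM + 0.5) over 12 libraries with 1 coefficient per group and no block. filterByExpr (edgeR 4.0.16, minimum count 10, on recovered reads) kept 12704 genes and removed 1515. Tests were two-sided with Benjamini-Hochberg adjustment, called under 0.05. The main limma fit and edgeR were tested on simulated data, and DESeq2 and the other alternative fits were not. No depth beyond the 7449468 to 15943547 reads on table genes is known. Alternatives were TMM scaling, no filter, pseudocounts of 1 and 0.1, edgeR and DESeq2 1.42.0 on recovered reads (which called 204 and 544 genes for marked against unmarked cells, days averaged), only the libraries compared, a block, and each library left out. Leaving out day 270 marked libraries 2 and 3 together was added after seeing the data.

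Specimen numbers in the labels pair marked with unmarked libraries within a day, and were taken as a pairing, although nothing says that specimens are animals. Residuals of the same specimen correlated with a median of 0.0556 (-0.0109 to 0.115, 6 pairs), and those of different specimens with a median of -0.0194 (-0.104 to 0.0301, 12 pairs).

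The members and gene lists were chosen with earlier results of these data known. Named were the 9 members, list genes called in any of 5 comparisons, the 2 largest and 2 smallest averaged differences of each list at 5 CPM or more, the 3 genes most correlated with each member, and Mki67, Top2a, Prdm1, Irf4, Xbp1, Jchain and Cdkn2a. Lengths are exon unions of GENCODE M21, which held 14165 of the identifiers; promoters are from RefSeq. The result of 1 listed marker gene is not reported here.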

Additional observations from a re-analysis of the deposited data

How the results depend on the processing

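Over 104 results and 1796 alternative values, 1537 kept direction and side of the threshold, 76 were weaker, 8 stronger, 63 moved and 112 reversed; the causes were not tested. For marked against unmarked cells with days averaged, 234 genes were called (544 with DESeq2) and 101 to 469 on leaving out 1 library; 2 members were called, 1 with a pseudocount of 0.1, edgeR or the specimen as replicate block, and 1 to 3 on leaving out 1 library. At day 270, 61 genes became 36 with edgeR, 256 with DESeq2, 0 in its libraries alone, 20 without day 270 marked libraries 2 and 3, and 5 to 475 on leaving out 1 library (475 without day 270 marked library 1); members called went to 1 with DESeq2 and without those 2 libraries, and 0 to 1 on leaving out 1. At day 60, 24 genes became 119 with DESeq2, with 1 member, 44 in its libraries alone, 38 with the specimen as replicate block and 3 to 19 on leaving out 1 library. Between days, 24 genes became 44 with a pseudocount of 1, 142 with DESeq2, 5 without the 2 libraries and 3 to 58 on leaving out 1 library. The interaction passed 5 genes with DESeq2 and 0 to 1 on leaving out 1 library.

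Sign changes concerned differences near 0 and Phc1. Days averaged, TMM, edgeR, DESeq2 and the fit without the 2 libraries gave Cbx7 0.057, 0.056, 0.069 and 0.039, Eed 0.027, 0.045, 0.058 and 0.011, Rbbp4 0.12, 0.14, 0.15 and 0.13 and Wdr5 0.11, 0.13, 0.14 and 0.20; the first 3 gave Phf1 0.053, 0.058 and 0.070, and the last gave Phc1 0.23 and Ash2l -0.096. At day 60, TMM, edgeR and DESeq2 gave Rnf2 0.047, 0.035 and 0.027 and Cbx7 0.091, 0.085 and 0.078, and TMM and edgeR gave Ring1 0.033 and 0.0044. At day 270, TMM, edgeR, DESeq2 and the fit without the 2 libraries gave Cbx7 0.023, 0.027, 0.060 and 0.12 and Eed 0.071, 0.11, 0.14 and 0.16, edgeR and DESeq2 gave Ezh1 0.022 and 0.056, and the fit without the 2 libraries gave Phc1 0.82. Between days, TMM, edgeR and DESeq2 gave Ring1 -0.0070, -0.018 and -0.0038, Cbx7 -0.073, -0.063 and -0.050 and Eed -0.11, -0.091 and -0.078, TMM and edgeR gave Suz12 -0.020 and -0.0039, and the fit without the 2 libraries gave Phc1 0.52. For the interaction, TMM gave Bmi1 -0.0043, and the fit without the 2 libraries gave Cbx7 0.15 and Phc1 1.17.

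Leaving out 1 library reversed, days averaged, Cbx7 (-0.16 to 0.049), Ash2l (-0.16 to 0.17), Cdkn1a (-0.049 to 0.20), E2f1 (-0.12 to 0.25), E2f6 (-0.015 to 0.47), Foxk2 (-0.038 to 0.35), Rbbp4 (-0.073 to 0.071) and Wdr5 (-0.11 to 0.14). It also reversed Ring1 (-0.27 to 0.12), Rnf2 (-0.24 to 0.033), Cbx7 (-0.12 to 0.053) and Eed (-0.27 to 0.0045) at day 60, Cbx7 (-0.29 to 0.13), Ezh1 (-0.41 to 0.047) and Eed (-0.23 to 0.099) at day 270, Cbx7 (-0.019 to 0.16) and Eed (-0.073 to 0.090) between days, and Bmi1 (-0.21 to 0.17), Cbx7 (-0.25 to 0.17), Ezh1 (-0.022 to 0.50) and Eed (-0.086 to 0.24) in the interaction. Per longest transcript, the log2 ratio of Ezh2 to Ezh1 was -2.68 in day 270 marked, -0.98 in day 270 unmarked, -1.64 in day 60 marked and -0.75 in day 60 unmarked cells, and PRC1 over PRC2 was 2.90, 1.97, 2.82 and 1.78 in the same order. The replicate block changed no other call of the 9 members. Depth limits Ezh2 and Phc1 most, with 18 and 0 reads in their lowest libraries.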
